A study of Mus musculus with 12 samples.

Results

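The genes examined here were 7 members of the ADAM family of membrane-anchored metalloproteases that resting B (RB) cells can carry: Adam10, Adam17, Adam15, Adam19, Adam8, Adam9 and Adam28. The array carries 50090 different gene or transcript names, and matching by gene name gave 12 of 61307 probes, and 10 of these 12 were among the 31599 probes bright enough to be tested. The study asked whether a costimulatory signal and Toll like receptor 2 (TLR-2) act together on RB cells without the B cell receptor. RB cells were purified by depletion of CD43+ and other cells from spleens of BALB/c mice, which the labels give as female and 6 weeks old and the study's methods as male or female, and total RNA was taken after 4 h of culture. There were 12 arrays, with 2 for each of 6 conditions. These were unstimulated cells and cells given Pam2CSK4 (a synthetic lipopeptide that engages TLR-2), anti-CD86 antibody, anti-CD86 with Pam2CSK4 (TLR2.CD86), anti-CD40 antibody, or anti-CD40 with Pam2CSK4. Every condition shared the same strain, tissue and culture time, and each stimulation was compared with the same 2 unstimulated arrays. The study calls the arrays of a condition biological replicates, but neither it nor the labels say whether they came from separate mice or only separate cultures, so the p-values measure the spread between arrays, part of which may be technical.

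ADAM proteins carry an extracellular metalloprotease domain that cuts other membrane proteins close to the cell surface and releases their outer part, a step called ectodomain shedding. ADAM17, also known as TACE, releases tumor necrosis factor, L-selectin and both TNF receptors. ADAM10 cuts CD23 and Notch receptors and is required in B cells for the marginal zone lineage. ADAM8, ADAM9, ADAM15, ADAM19 and ADAM28 shed fewer known proteins, and their disintegrin domains can bind integrins. ADAM28 was first described in lymphocytes.

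Each array signal is given on the log2 scale relative to the 75th percentile of its own array, so that 0 is that percentile. Levels of different probes are not compared, since probes differ in how well they hybridise. The arrays stood on 2 slides, and this divided the samples. Slide 1 held 8 arrays (both unstimulated, both anti-CD40 with Pam2CSK4, and replicate 1 of the other conditions) and slide 2 held replicate 2 of Pam2CSK4, anti-CD86, TLR2.CD86 and anti-CD40. The first principal component, with 32.7% of the variance, separated the slides, and 18062 of the 31599 probes differed between them. Values from a fit with a slide block are therefore given beside the main values where they change a call, a call being an adjusted p under 0.05 in limma with Benjamini-Hochberg adjustment over all tested probes. The B cell markers Ms4a1, Cd79b and Pax5 were well above background on every array. Markers of other cells were measured too: 8 of 8 T cell, 5 of 5 NK cell and 11 of 11 myeloid genes were tested. The summed linear level of the myeloid markers was 469 and 500.3 times the 75th percentile signal in the unstimulated arrays and between 325 and 466 in the others, and that of the NK markers was 14.8 and 15 against 8.18 to 12.7. The T cell markers summed to 27.4 and 27.5 against 16.4 to 24.3. With TLR2.CD86 1 T cell marker rose and 1 fell, and a slide block called 1 higher and 3 lower there. The block called 2, 2 and 3 T cell markers lower with anti-CD86, anti-CD40 and anti-CD40 with Pam2CSK4. With TLR2.CD86, 5 of 11 myeloid and 3 of 5 NK markers fell, with anti-CD40 3 and 3, and with anti-CD40 and Pam2CSK4 5 and 1. Of all probes, 10.8%, 16.8% and 18.2% were called there. With anti-CD86 1 myeloid marker fell, beside 2.17%. The block called 3, 4, 5, 4 and 6 myeloid markers lower in the order Pam2CSK4, anti-CD86, TLR2.CD86, anti-CD40, anti-CD40 with Pam2CSK4. It also called 1 higher with each treatment holding Pam2CSK4. In the same order it called 0, 3, 3, 3 and 3 NK markers lower, and 11.1%, 28.5%, 35.1%, 37.3% and 47.5% of all probes. The part of these other cells in the results on the ADAM genes was not tested. In these bulk samples fewer cells of a type and less RNA per cell cannot be told apart.

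The sequences below are of probes of Adam17 and Adam15, and the second Adam17 probe is not printed. The probe that reported Adam17 most brightly and both probes of Adam15 are shown because only 1 of the Adam15 probes gave a signal, although all 3 are of the same length, 60 bases, and the Adam15 pair names the same transcript. Probe sequences are as in the scanner files, in lower case throughout, and 27, 32 and 33 of their bases are G or C.

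Adam17, brightest probe: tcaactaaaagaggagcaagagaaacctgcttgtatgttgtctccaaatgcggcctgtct
Adam15, brightest probe: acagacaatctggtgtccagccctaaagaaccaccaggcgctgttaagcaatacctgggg
Adam15, other probe: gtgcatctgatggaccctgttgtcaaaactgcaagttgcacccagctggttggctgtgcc

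The promoters of Adam17 and Adam15, the genes that moved in opposite directions, are given as the 250 bases before the RefSeq start of each gene in assembly GRCm38.p6, on the gene's own strand, which is the minus strand for both. Capitals mark the GC box GGGCGG and the ETS core CCGGAA, read on both strands, so that TTCCGG is an ETS core on the other strand.

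Adam17, chr12:21373633-21373882: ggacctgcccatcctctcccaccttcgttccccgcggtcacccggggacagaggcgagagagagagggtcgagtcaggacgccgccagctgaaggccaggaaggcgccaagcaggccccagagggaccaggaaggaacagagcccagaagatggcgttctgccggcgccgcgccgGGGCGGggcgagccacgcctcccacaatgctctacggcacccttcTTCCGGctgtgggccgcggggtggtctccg
Adam15, chr3:89350029-89350278: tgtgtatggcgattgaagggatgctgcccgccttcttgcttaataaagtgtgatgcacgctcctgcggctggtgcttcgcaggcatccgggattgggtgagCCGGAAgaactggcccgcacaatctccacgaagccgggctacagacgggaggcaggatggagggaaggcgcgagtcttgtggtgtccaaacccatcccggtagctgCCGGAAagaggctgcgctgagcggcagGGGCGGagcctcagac

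Adam17 and Adam15 each held 1 GC box, and they held 1 and 2 ETS cores. Neither window held the kB consensus. Of 32851 mouse promoter windows of this length, 32.7% held a GC box, 12% an ETS core and 7.25% the kB consensus. The Adam10 window held 3 GC boxes and the Adam8 window 1, with no ETS core or kB consensus in either. Adam19 had 3 annotated starts, of which 1 window held 2 matches to the kB consensus and the others no match to any of the 3 motifs. Entries for Adam9 and Adam28 were not used here. A match describes the letters of the window only.

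Adam17 was the member that rose. It was also among the genes that the study displayed from these same arrays, so that its direction is not independent evidence. Its brightest probe rose with anti-CD40 and with anti-CD40 and Pam2CSK4. In the latter the signal was 2.20-fold that of unstimulated RB cells, and the second Adam17 probe gave 2.14-fold. The brightest probe read 3.44 and 3.19 on the unstimulated arrays, 3.84 and 3.61 with Pam2CSK4, and 3.97 and 3.49 with anti-CD86. It read 3.98 and 3.90 with TLR2.CD86, 4.17 and 4.04 with anti-CD40, and 4.46 and 4.45 with anti-CD40 and Pam2CSK4. Every stimulated array lay above both unstimulated arrays, and the anti-CD40 with Pam2CSK4 arrays lay above all others. Arrays lying wholly above the unstimulated ones were common, at 19.8% of all tested probes with Pam2CSK4, 25.4% with anti-CD86, 27.5% with TLR2.CD86, 26.6% with anti-CD40 and 38.5% with anti-CD40 and Pam2CSK4. Arrays lying wholly below the unstimulated ones made up 37.7%, 37%, 36.6%, 35.7% and 37.5% in the same order.

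**Figure D1:**
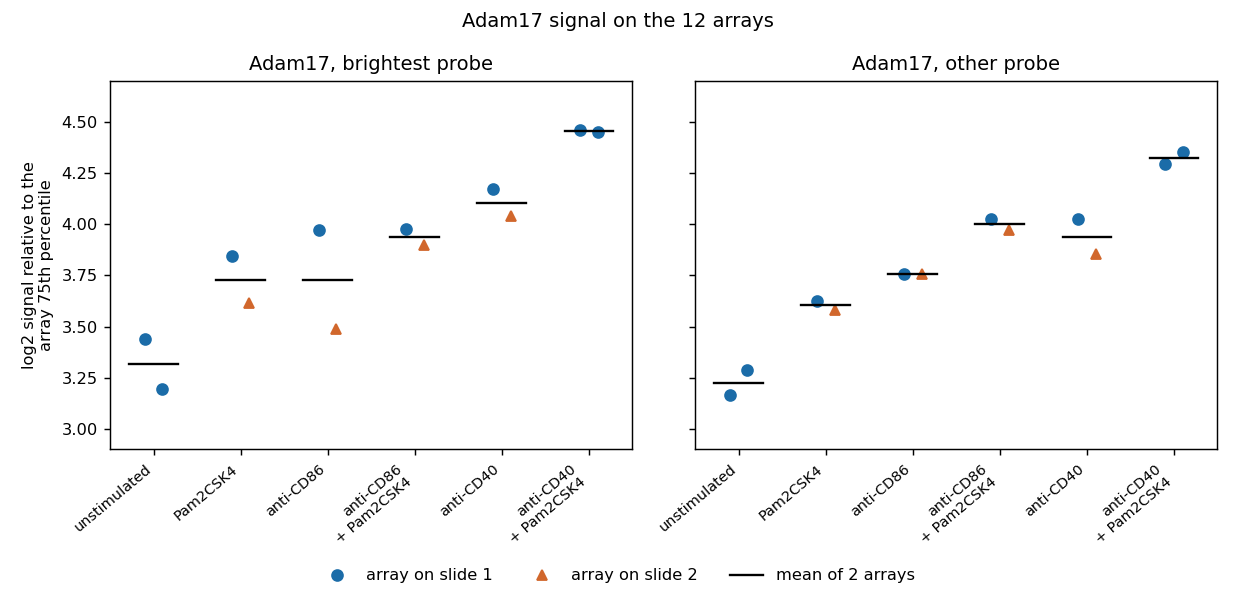
Adam17 signal (log2, relative to that array's 75th percentile) on each of the 12 arrays, for its brightest and its other probe, by condition. Points are single arrays, marked by slide, and bars are means of 2 arrays; unstimulated means are 3.32 and 3.23, and those with anti-CD40 and Pam2CSK4 are 4.46 and 4.33.

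Against unstimulated cells the brightest Adam17 probe differed by a log2 fold change of 1.14 with anti-CD40 and Pam2CSK4 (SE 0.18, limma adjusted p = 0.00437) and by 0.79 with anti-CD40 (SE 0.18, limma adjusted p = 0.0237). The values with TLR2.CD86, anti-CD86 and Pam2CSK4 were 0.62, 0.41 and 0.41, with limma adjusted p of 0.0595, 0.209 and 0.312, so that these did not pass the threshold. The second probe, which shares no run of over 7 bases with the first, was called in 4 of the 5 stimulations. Its log2 fold changes were 1.1 with anti-CD40 and Pam2CSK4 (limma adjusted p = 0.00066), 0.71 with anti-CD40 (adjusted p = 0.00663), 0.77 with TLR2.CD86 (adjusted p = 0.0105) and 0.53 with anti-CD86 (adjusted p = 0.0496), and it was 0.38 with Pam2CSK4 (adjusted p = 0.189).

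With a slide block, both Adam17 probes were called in all 5 stimulations. The brightest probe then gave 0.53 with Pam2CSK4 (limma adjusted p = 0.0457), 0.53 with anti-CD86 (adjusted p = 0.0231), 0.74 with TLR2.CD86 (adjusted p = 0.00593), 0.91 with anti-CD40 (adjusted p = 0.00233) and 1.14 with anti-CD40 and Pam2CSK4 (adjusted p = 0.000493). Within slide 1 alone the same 5 differences were 0.53, 0.66, 0.66, 0.86 and 1.14; slide 2 held no unstimulated array. The call with anti-CD40 was lost without any 1 of its 4 arrays (adjusted p 0.0553 to 0.156), whereas that with anti-CD40 and Pam2CSK4 held without each of them (adjusted p 0.0244 to 0.0452).

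The mean levels of the brightest Adam17 probe stood in the order unstimulated (3.32 ± 0.17, SD, n = 2), Pam2CSK4 (3.73 ± 0.16), anti-CD86 (3.73 ± 0.34), TLR2.CD86 (3.94 ± 0.055), anti-CD40 (4.11 ± 0.094) and anti-CD40 with Pam2CSK4 (4.46 ± 0.0088). Pam2CSK4 and anti-CD86 overlapped, and so did anti-CD86 and TLR2.CD86. In the second probe TLR2.CD86 (4.00) and anti-CD40 (3.94) changed places, and their arrays overlapped. Adding Pam2CSK4 to anti-CD40 gave a difference of 0.35 in the brightest probe (95% interval -0.06 to 0.76, limma adjusted p = 0.318) and 0.39 in the other (adjusted p = 0.111, and 0.0221 with a slide block). Adding anti-CD40 to Pam2CSK4 gave 0.73 (adjusted p = 0.0392) and 0.72 (adjusted p = 0.00624). For the brightest probe that call was lost without any 1 of the 4 arrays (adjusted p 0.0739 to 0.207).

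The gain from adding anti-CD86 to Pam2CSK4 did not pass the test in either Adam17 probe. TLR2.CD86 exceeded Pam2CSK4 by 0.21 in the brightest Adam17 probe (95% interval -0.20 to 0.62, limma adjusted p = 0.81) and by 0.40 in the other (adjusted p = 0.262, and 0.0198 with a slide block). Against anti-CD86 alone it differed by 0.21 and 0.24 (adjusted p = 0.833 and 0.566). With the same TLR-2 ligand, anti-CD40 gave higher Adam17 than anti-CD86 by 0.52 and 0.32 (adjusted p = 0.101 and 0.0892, and 0.0487 and 0.0207 with a slide block).

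The title given to the deposited series speaks of synergy, and for Adam17 the effect of both signals was set against the sum of the single effects on the log2 scale. With anti-CD40 and Pam2CSK4 this interaction was -0.06 in the brightest probe (95% interval -0.64 to 0.51, limma adjusted p = 0.879) and 0.01 in the other (adjusted p = 0.974). With anti-CD86 and Pam2CSK4 it was -0.20 (95% interval -0.78 to 0.37) and -0.13 (adjusted p = 0.969 for both). No member probe passed the test of either interaction, where 0.019% of all tested probes passed for anti-CD86 and 1.16% for anti-CD40. At an unadjusted p under 0.05 the member count was also 0 in both, beside 1357 and 6131 of all 31599 tested probes. With a slide block no member probe was called either, beside 0.234% and 8.59% of all probes. For anti-CD86 1 member probe then had an unadjusted p under 0.05, as did 5174 of all probes.

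Adam10, the sheddase of CD23 and Notch receptors, went the other way and fell with anti-CD40. Its only probe read -1.34 and -1.14 on the unstimulated arrays and -1.79 and -2.08 with anti-CD40. It read -1.34 and -1.74 with Pam2CSK4, -1.65 and -1.41 with anti-CD86, -1.50 and -1.58 with TLR2.CD86, and -1.89 and -1.65 with anti-CD40 and Pam2CSK4. No stimulated array reached above an unstimulated one, although the first Pam2CSK4 array equalled the lower of them to 2 decimals. Such a position was common, at 35.7% to 37.7% of all tested probes in each stimulation.

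The log2 fold change of Adam10 with anti-CD40 was -0.70 (SE 0.18, limma adjusted p = 0.0381), which is 0.618-fold. With anti-CD40 and Pam2CSK4 it was -0.53 (adjusted p = 0.0857, and 0.039 with a slide block). The other stimulations gave -0.30, -0.29 and -0.30 for Pam2CSK4, anti-CD86 and TLR2.CD86, with adjusted p of 0.426, 0.386 and 0.304. Within slide 1 the value with anti-CD40 was -0.55. The call with anti-CD40 was lost without unstimulated replicate 1 or 2 or anti-CD40 replicate 2 (adjusted p of up to 0.205) and held without anti-CD40 replicate 1 (adjusted p = 0.0355).

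Adam15 fell as well, and with more of the stimulations. Its brightest probe read -0.44 and -0.29 on the unstimulated arrays, -0.68 and -0.89 with Pam2CSK4, and -0.73 and -1.17 with anti-CD86. It read -0.93 and -1.01 with TLR2.CD86, -0.88 and -0.95 with anti-CD40, and -1.05 and -1.07 with anti-CD40 and Pam2CSK4. Both unstimulated arrays lay above all 10 stimulated arrays. In each stimulation taken alone, 35.7% to 37.7% of all tested probes lay wholly below the unstimulated arrays.

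The log2 fold changes of Adam15 were -0.60 with TLR2.CD86 (SE 0.16, limma adjusted p = 0.0473), -0.55 with anti-CD40 (SE 0.16, adjusted p = 0.0484) and -0.69 with anti-CD40 and Pam2CSK4 (SE 0.16, adjusted p = 0.0192), the last being 0.618-fold. With anti-CD86 the value was -0.58 (adjusted p = 0.087, and 0.0181 with a slide block), and with Pam2CSK4 -0.42 (adjusted p = 0.271). Each of the 3 calls was lost without any 1 of its 4 arrays, with adjusted p from 0.0704 to 0.24. The other Adam15 probe was not well above background on any array, with readings of -5.70 to -6.49, and was not tested, so the fall rests on 1 probe.

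**Figure D2:**
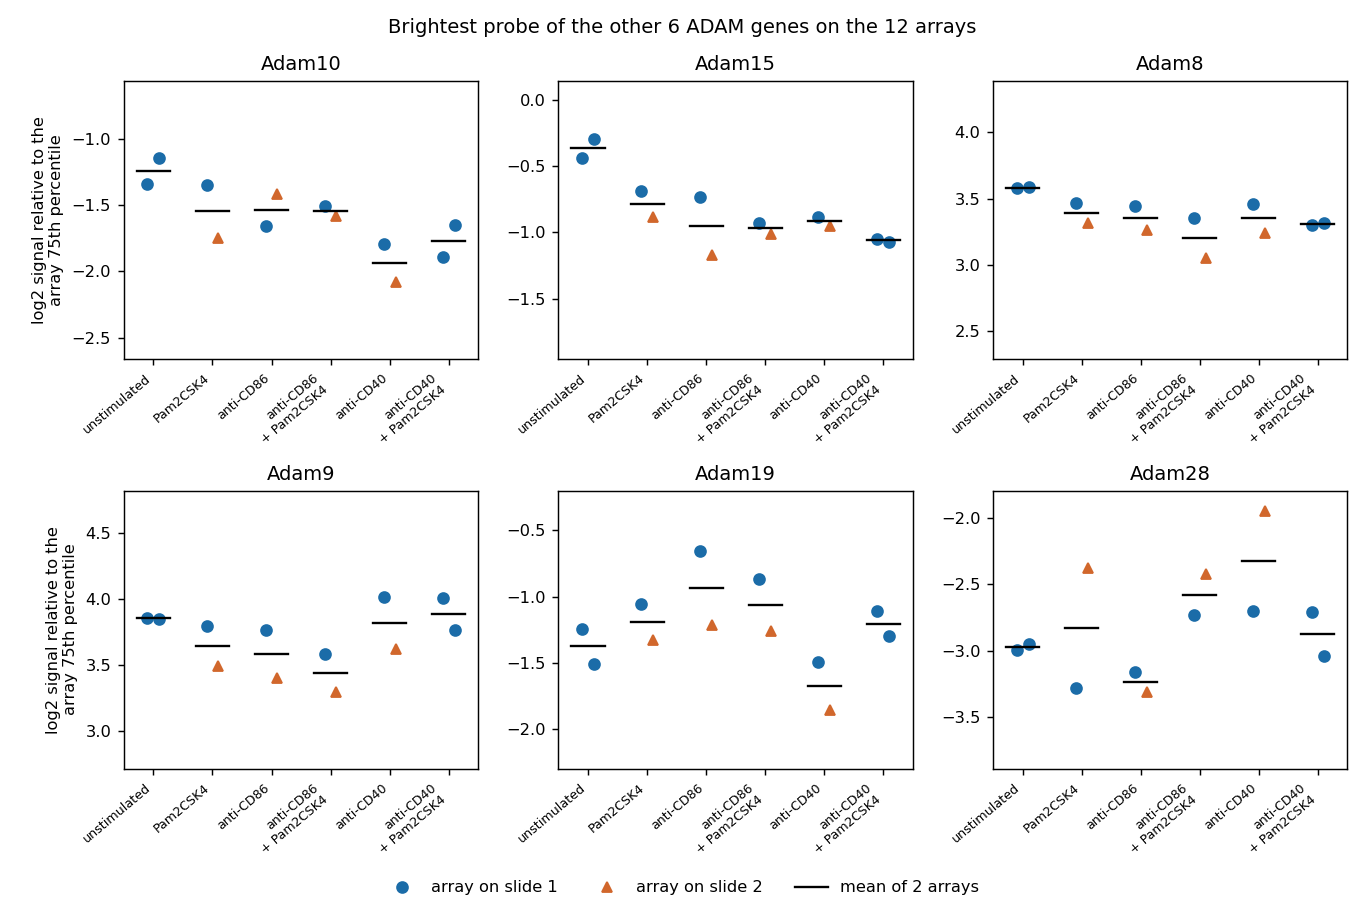
Signal (log2, relative to that array's 75th percentile) of the brightest probe of Adam10, Adam15, Adam8, Adam9, Adam19 and Adam28 on each of the 12 arrays, by condition. Points are single arrays, marked by slide, and bars are means of 2 arrays; each panel spans the same height on the log2 axis. Adam15 means go from -0.37 in unstimulated cells to -1.06 with anti-CD40 and Pam2CSK4.

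Adam8 and Adam9 gave bright signals, and neither passed the test in any stimulation. Adam8, which is carried by leukocytes, read 3.58 and 3.59 on the unstimulated arrays and between 3.05 and 3.46 on the stimulated ones. The groups did not overlap, as was so for 35.7% to 37.7% of all tested probes, also lower, in each stimulation. Its log2 fold changes ran from -0.38 with TLR2.CD86 (limma adjusted p = 0.119) to -0.19 with Pam2CSK4 (adjusted p = 0.511). With a slide block it was called with TLR2.CD86 (-0.27, adjusted p = 0.013) and with anti-CD40 and Pam2CSK4 (-0.27, adjusted p = 0.00728). The slide 2 arrays read 0.21 lower for Adam8 than those of slide 1 within conditions (a difference of -0.21, adjusted p = 0.00432).

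Adam9, a broadly expressed sheddase, read 3.86 and 3.85 on the unstimulated arrays. Its log2 fold change was -0.41 with TLR2.CD86 (limma adjusted p = 0.206), -0.21 with Pam2CSK4, -0.27 with anti-CD86, -0.04 with anti-CD40 and 0.03 with anti-CD40 and Pam2CSK4 (95% interval -0.43 to 0.49). The slide difference of -0.33 (adjusted p = 0.00378) was as large as most of these values. Adam9 was not called in any comparison with a slide block either, where the value with TLR2.CD86 was -0.24 (adjusted p = 0.0725).

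Adam19, which cuts neuregulin, was read by 3 tested probes that did not move together. With TLR2.CD86 the brightest gave 0.31 (limma adjusted p = 0.404), the next -0.52 (adjusted p = 0.096) and the dimmest 0.12 (adjusted p = 0.792). With a slide block the first gave 0.51 (adjusted p = 0.0203) and the second -0.62 (adjusted p = 0.0174), so that both were called in opposite directions. The first probe was also called with anti-CD86 in that fit, at 0.64 (adjusted p = 0.0122). The first probe read -1.24 and -1.51 unstimulated, -0.65 and -1.22 with anti-CD86, -0.87 and -1.26 with TLR2.CD86, and -1.50 and -1.85 with anti-CD40. Its slide difference was -0.40 (adjusted p = 0.0073), and no direction is given for the gene.

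Adam28 was dim. Its brighter probe read -2.99 and -2.95 on the unstimulated arrays and -2.70 and -1.95 with anti-CD40, where the log2 fold change of 0.65 did not pass the test (95% interval -0.11 to 1.41, limma adjusted p = 0.209). The second anti-CD40 array, on slide 2, was the highest of all 12. That array was also the only one on which the other Adam28 probe was well above background, at -2.09 against -4.35 to -6.12 on the other 11, and it had the largest share of probes well above background, 60.6% against 46.6% to 55.9%. That probe was not tested.

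**Figure D3:**
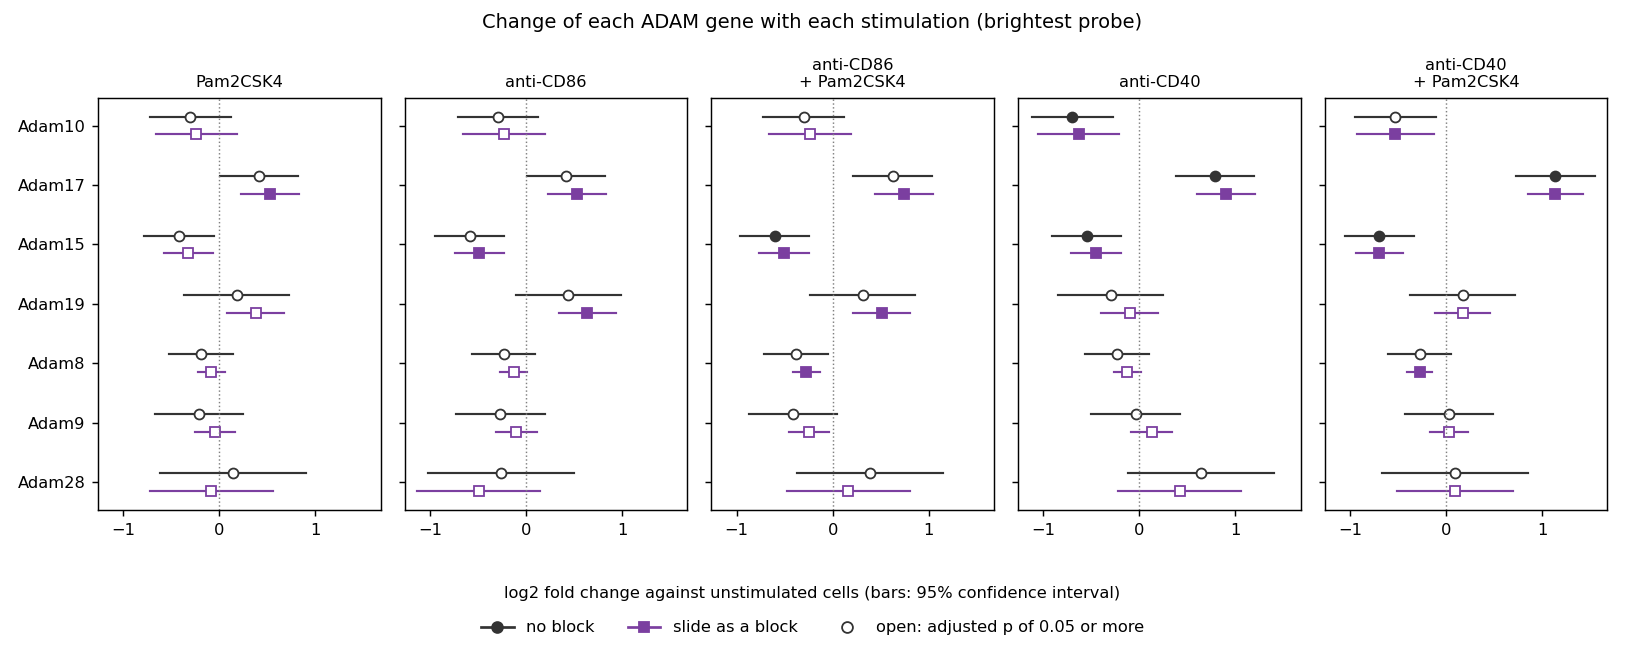
Log2 fold change against unstimulated cells of the brightest probe of each of the 7 ADAM genes, in a panel for each stimulation, without a block (circles) and with a slide block (squares). Bars are 95% confidence intervals and filled symbols have an adjusted p under 0.05; Adam17 lies to the right of 0 and Adam15 and Adam10 to the left in all 5 panels.

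Over all 10 tested member probes, none was called with Pam2CSK4, where 0.146% of all probes were. There 3 member probes had an unadjusted p under 0.05, as did 5005 of all 31599 tested probes. With anti-CD86 there was 1 called member probe, the second of Adam17, against a background of 2.17%. With TLR2.CD86 there were 2 (1 Adam17 probe higher, Adam15 lower) against 10.8%, with anti-CD40 there were 4 (both Adam17 probes higher, Adam10 and Adam15 lower) against 16.8%, and with anti-CD40 and Pam2CSK4 there were 3 (both Adam17 probes higher, Adam15 lower) against 18.2%. Adding anti-CD40 to Pam2CSK4 called 2, both of Adam17, against 9.97%. None was called for TLR2.CD86 against Pam2CSK4 (0.0633% of all probes) or against anti-CD86 (0.225%), for Pam2CSK4 added to anti-CD40 (2.91%), or for anti-CD40 against anti-CD86 with Pam2CSK4 (12.3%), where 1, 0, 1 and 2 member probes had an unadjusted p under 0.05. In the same order 3283, 2811, 6250 and 9498 of all 31599 tested probes had such a p. A slide block called 2, 4, 6, 4 and 5 member probes in the 5 stimulations, where it called 11.1%, 28.5%, 35.1%, 37.3% and 47.5% of all probes. It also called 1 for TLR2.CD86 against Pam2CSK4 (11% of all probes), 4 for anti-CD40 added to Pam2CSK4 (31.5%), 1 for Pam2CSK4 added to anti-CD40 (15.2%) and 2 for anti-CD40 against anti-CD86 with Pam2CSK4 (34.6%). With so few probes these shares were not tested against the background. The median log2 fold change over the 7 genes was -0.19, -0.26, -0.30, -0.23 and 0.03 for Pam2CSK4, anti-CD86, TLR2.CD86, anti-CD40 and anti-CD40 with Pam2CSK4, beside medians over all tested probes of -0.07, -0.05, -0.03, -0.02 and 0.01.

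A test over all 6 conditions at once called both Adam17 probes (limma moderated F test, adjusted p = 0.0251 and 0.00387) and no other member, where 20.4% of all probes were called. With a slide block, where 60% of all probes were called, Adam15 (adjusted p = 0.0119), Adam8 (adjusted p = 0.0227) and the brightest Adam19 probe (adjusted p = 0.00972) joined them.

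Scaling each array by its median instead of its 75th percentile left no member called. The median log2 fold change over all probes then stood at -0.27 for Pam2CSK4, -0.19 for anti-CD86, -0.32 for TLR2.CD86, -0.58 for anti-CD40 and -0.10 for anti-CD40 with Pam2CSK4, in place of -0.07, -0.05, -0.03, -0.02 and 0.01. Relative to that median, and so alike under both scalings, the brightest Adam17 probe stood at 0.48, 0.47, 0.65, 0.80 and 1.13 for Pam2CSK4, anti-CD86, TLR2.CD86, anti-CD40 and anti-CD40 with Pam2CSK4. Relative to the same median Adam15 stood at -0.35, -0.53, -0.57, -0.53 and -0.70 and Adam10 at -0.23, -0.24, -0.27, -0.68 and -0.54.

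The difference between 2 probes on the same array does not depend on the scaling. Adam17 minus Adam15 was 3.88 and 3.49 on the unstimulated arrays, 4.53 and 4.50 with Pam2CSK4, and 4.71 and 4.65 with anti-CD86. It was 4.90 and 4.91 with TLR2.CD86, 5.05 and 4.99 with anti-CD40, and 5.51 and 5.52 with anti-CD40 and Pam2CSK4. All 10 stimulated arrays lay above both unstimulated arrays, which follows from the readings of each gene given above and is no further evidence. For this pair of probes, both arrays of every stimulated condition lay closer together than the unstimulated pair, although 4 conditions had them on different slides. The slide differences of these probes were -0.23 and -0.20. Not all pairs behaved so: with anti-CD86 the SD was 0.51 for Adam17 minus Adam10 and 0.21 for Adam17 minus Adam8, against 0.32 and 0.18 unstimulated. The mean of Adam17 minus Adam15 exceeded that in unstimulated cells by 0.83, 1.00, 1.23, 1.34 and 1.83. Adam17 minus Adam10 exceeded it by 0.72, 0.70, 0.92, 1.48 and 1.67, Adam17 minus Adam8 by 0.60, 0.65, 1.00, 1.02 and 1.41, and Adam17 minus Adam9 by 0.62, 0.68, 1.04, 0.83 and 1.11. These are descriptions of unequal change within the family, and pairs of other probes were not examined.

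**Figure D4:**
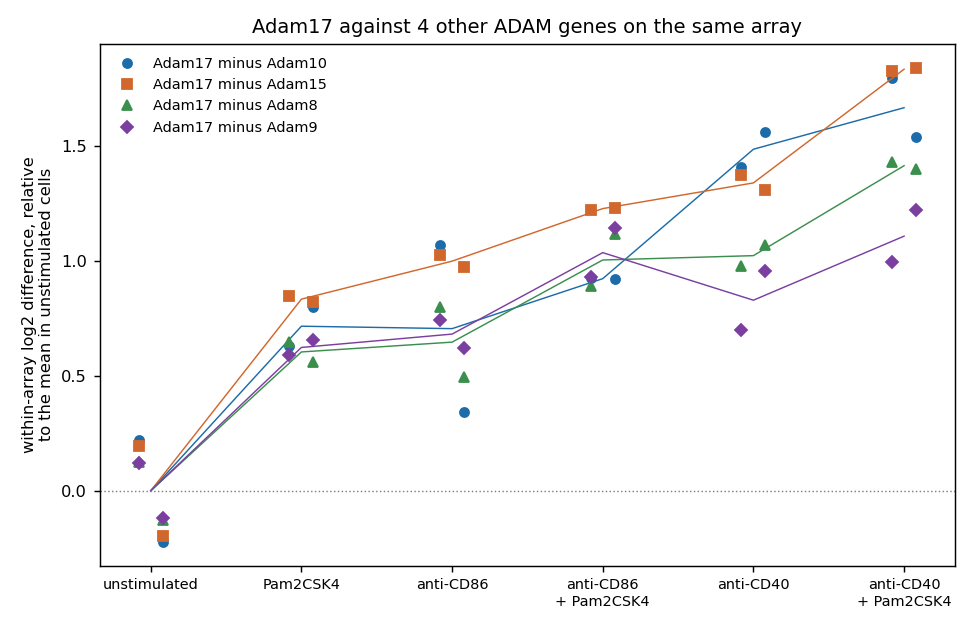
Difference in log2 signal between the brightest probe of Adam17 and that of Adam10, Adam15, Adam8 or Adam9 on the same array, relative to the mean difference in unstimulated cells, by condition. Points are single arrays and lines join the means of 2; the mean of Adam17 minus Adam15 reaches 1.83 with anti-CD40 and Pam2CSK4.

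The genes that govern maturation and activity of ADAM10 and ADAM17 were measured for 18 genes, of which 12 were tested. With anti-CD40, 1 rose and 3 fell, and with anti-CD40 and Pam2CSK4 1 rose and 4 fell, beside 16.8% and 18.2% of all probes called. A slide block gave 3 higher and 4 lower, and 2 higher and 4 lower, beside 37.3% and 47.5% of all probes. Tspan14, a tetraspanin that accompanies ADAM10 out of the endoplasmic reticulum, fell by 1.28 on the log2 scale with anti-CD40 (limma adjusted p = 0.00435) and by 1.62 with anti-CD40 and Pam2CSK4 (adjusted p = 0.000859). Rhbdf2, which encodes iRhom2, the partner that brings ADAM17 to the surface, fell by 0.43 (adjusted p = 0.0423) and by 0.97 (adjusted p = 0.0016), although its other probe gave -0.34 and -0.53 and was not called. Frmd8, which stabilises the iRhom and ADAM17 complex, fell by 0.73 and by 0.72 (adjusted p = 0.0438 and 0.0436). Tspan17, another tetraspanin of that group, fell by 0.65 with TLR2.CD86 (adjusted p = 0.0216) and by 0.82 with anti-CD40 and Pam2CSK4 (adjusted p = 0.00392), and a slide block called it lower in the other 3 stimulations too (-0.58 to -0.30). The block also called Tspan14 lower with Pam2CSK4 and TLR2.CD86, at -0.29 and -0.22 (adjusted p = 0.0453 and 0.0483). The genes that rose, named because they were so few, were Tspan33, a further tetraspanin of the group, with anti-CD40 (0.76, adjusted p = 0.0126) and Timp1, a metalloprotease inhibitor, with anti-CD40 and Pam2CSK4 (0.71, adjusted p = 0.0432). The other Tspan33 probe gave 1.39 with anti-CD40 and was not called (adjusted p = 0.0534). With a slide block the brightest Tspan33 probe was called lower with anti-CD86 and TLR2.CD86, at -0.54 and -0.34 (limma adjusted p = 0.00289 and 0.00756). Timp1 was then called higher with anti-CD40 too, at 0.35 (adjusted p = 0.0182). No gene of the list was called with Pam2CSK4 or anti-CD86 alone, where a slide block called 3 and 4. With TLR2.CD86 1 fell, and the block called 1 higher and 3 lower. Of all probes, 0.146%, 2.17% and 10.8% were called in these 3 stimulations, and 11.1%, 28.5% and 35.1% with the block. Rhbdf1, the other iRhom, singled out after its values were seen, was called in no stimulation without the block (0.45 to 0.74, lowest adjusted p = 0.0592) and was called higher in all 5 with it (0.65 to 0.83, highest adjusted p = 0.0107).

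Genes of 20 proteins that ADAM10 or ADAM17 cut on lymphocytes were all tested, and they moved in both directions. With anti-CD40, 5 rose and 6 fell, and with anti-CD40 and Pam2CSK4 7 rose and 3 fell, with medians of -0.06 and 0.01, beside 16.8% and 18.2% of all probes called. With TLR2.CD86 1 rose and 1 fell, beside 10.8% of all probes called. None was called with Pam2CSK4 or anti-CD86, where 0.146% and 2.17% of all probes were. A slide block called 4 higher and 2 lower with Pam2CSK4, 3 and 5 with anti-CD86, and 3 and 4 with TLR2.CD86. It called 7 and 7 with anti-CD40, and 8 and 6 with anti-CD40 and Pam2CSK4. In the same order the block called 11.1%, 28.5%, 35.1%, 37.3% and 47.5% of all probes. Tnf, the substrate that gave ADAM17 its other name, rose by 1.27 with TLR2.CD86 (limma adjusted p = 0.015) and by 1.66 with anti-CD40 and Pam2CSK4 (adjusted p = 0.00169), and the value with Pam2CSK4 alone was 1.22 (adjusted p = 0.0787). With a slide block Tnf was called in all 5 stimulations, at 1.40 with Pam2CSK4 (adjusted p = 0.00127), 0.25 with anti-CD86 (adjusted p = 0.035) and 0.46 with anti-CD40 (adjusted p = 0.00294). Fcer2a, which encodes CD23, rose by 1.21 with anti-CD40 and by 1.49 with anti-CD40 and Pam2CSK4 (adjusted p = 0.00537 and 0.00124), and a slide block called it higher in the other stimulations too, at 0.45 with Pam2CSK4, 0.27 with anti-CD86 and 0.69 with TLR2.CD86 (adjusted p = 0.01, 0.0142 and 0.000836). Cd40 rose by 1.06 and by 1.54 (adjusted p = 0.0259 and 0.00473), and with a slide block also by 0.58 with Pam2CSK4 and by 0.55 with TLR2.CD86 (adjusted p = 0.0098 and 0.00233). Tnfrsf1a, which encodes TNF receptor 1, fell by 0.84 with TLR2.CD86, by 0.78 with anti-CD40 and by 0.71 with anti-CD40 and Pam2CSK4 (adjusted p = 0.00843, 0.00335 and 0.00252), and a slide block called it lower with Pam2CSK4 and anti-CD86 as well, at -0.46 and -0.30 (adjusted p = 0.0118 and 0.0133). Since these are RNA levels, they say nothing of how much protein was cut.

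**Figure D5:**
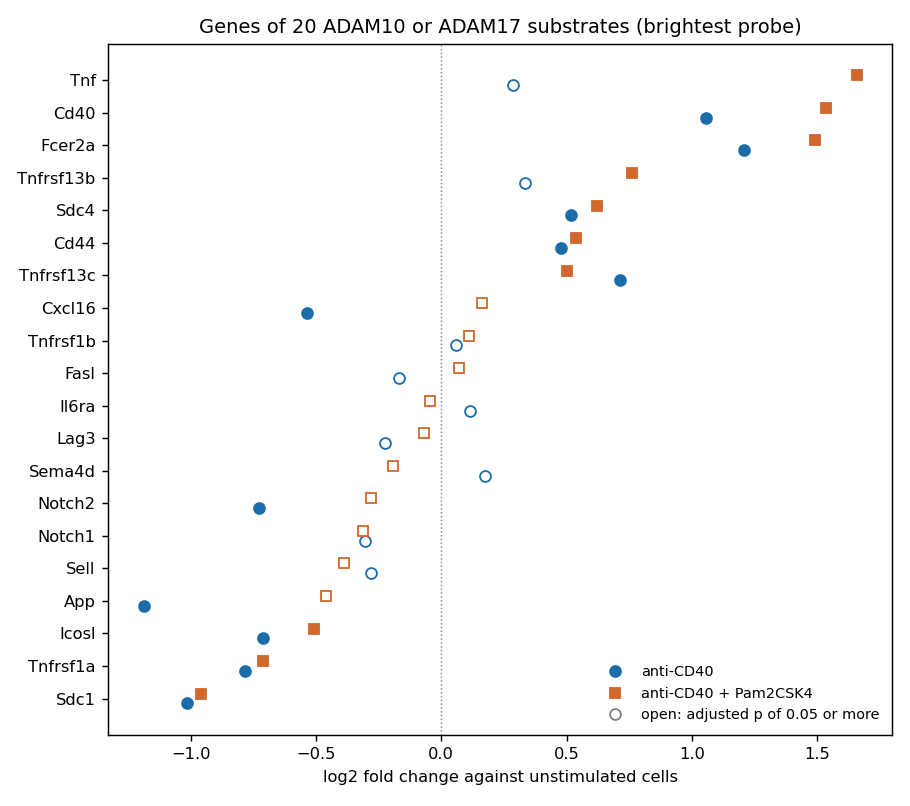
Log2 fold change against unstimulated cells of the brightest probe of 20 genes whose proteins ADAM10 or ADAM17 cut, with anti-CD40 (circles) and with anti-CD40 and Pam2CSK4 (squares), ordered by the latter. Filled symbols have an adjusted p under 0.05; Tnf is highest at 1.66 and Sdc1 lowest at -0.96 with anti-CD40 and Pam2CSK4.

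Gamma-secretase cuts the stub that ADAM10 leaves of Notch, and 6 of its 7 genes were tested. Aph1a, a subunit of the complex, fell by 0.90 with TLR2.CD86 (limma adjusted p = 0.0105) and by 0.96 with anti-CD40 (adjusted p = 0.00404) but rose by 0.94 with anti-CD40 and Pam2CSK4 (adjusted p = 0.00221). The other Aph1a probe gave -0.04, -0.02 and 0.75 in these stimulations, and only the last was called (adjusted p = 0.0431), so the lower values rest on 1 probe. Psen2, a catalytic subunit, fell by 0.90 and by 0.79 with anti-CD40 and with anti-CD40 and Pam2CSK4 (adjusted p = 0.00852 and 0.00861). With anti-CD40 and Pam2CSK4 Ncstn fell by 0.44 (adjusted p = 0.0416) and the brightest Aph1b probe rose by 0.58 (adjusted p = 0.018), where its other probes gave 0.13 and -0.41 and were not called. A slide block called Aph1a lower with Pam2CSK4 and anti-CD86 as well, at -0.30 and -0.45 (adjusted p = 0.0394 and 0.0056), and Psen2 with TLR2.CD86, at -0.34 (adjusted p = 0.00837). Of 8 EGF receptor ligands released by ADAM10 or ADAM17, 3 were tested (Egf, Nrg1 and Hbegf), all dim at -2.84 to -4.07 in the group means, and none was called. A slide block called Nrg1 lower with anti-CD86 (-1.03, adjusted p = 0.0449) and with TLR2.CD86 (-1.18, adjusted p = 0.0237). Of 23 other ADAM genes on the array only 7 were tested. Adam1a rose by 0.60 with anti-CD40 and by 0.75 with anti-CD40 and Pam2CSK4 (adjusted p = 0.0199 and 0.00627), Adam21 rose by 0.69 with the latter (adjusted p = 0.0261), and no other of the 7 was called. A slide block called Adam1a higher with anti-CD86 too, at 0.39 (adjusted p = 0.00788). Beside these 3 lists, 0.146%, 2.17%, 10.8%, 16.8% and 18.2% of all probes were called. The order is Pam2CSK4, anti-CD86, TLR2.CD86, anti-CD40, anti-CD40 with Pam2CSK4. With the block the shares were 11.1%, 28.5%, 35.1%, 37.3% and 47.5%.

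The genes that followed the brightest probe of each called member most closely over the 12 arrays were sought among 10056 genes. The slide difference was first taken out. Each of these genes was represented by its probe with the highest r, which favours genes with several probes. For Adam17 they were Arcn1 (Pearson r = 0.97), Agpat6 (0.97) and Pim2 (0.96), while the second Adam17 probe gave 0.93. For Adam15 they were Sh3kbp1 (0.96), Sat1 (0.95) and Zyx (0.95), and for Adam10 Znhit2 (0.94), Cab39 (0.92) and Chchd5 (0.92). The 12 arrays share 6 conditions and their scaling, so these values only describe likeness.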

How the data were processed

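RNA of purified RB cells was labelled with Cy3 and hybridised to a custom mouse array annotated to build mm9. The authors extracted the images with Feature Extraction 10.5.1.1 and deposited 1 scanner file per array, whose processed signal is an intensity corrected for background within the array. They also deposited a table of log2 values, each column of which equalled the log2 processed signal minus 1 constant close to the array's 75th percentile, and this table was used as an alternative. The methods name GeneSpring and a one way test over conditions, not the normalization.

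Here the log2 of the processed intensity minus the log2 75th percentile of the array was used. Control spots and outlier spots (5 to 35 per array) were left out, spots of 1 probe were averaged, and saturated spots were kept (no member probe was saturated). A probe was kept if it stood well above background on each array of some condition, which 31669 did, and 70 of those were dropped because an outlier spot left a gap. With 2 arrays per condition, the number of arrays limits the precision. Between 46.6% and 60.6% of probes were well above background per array. limma 3.58.1 under R 4.3.3 gave the tests (lmFit and eBayes, 1 coefficient per condition over all 12 arrays, Benjamini-Hochberg adjustment over 31599 probes, called at an adjusted p under 0.05) after the code had been tested on simulated data. A gene is led by its brightest tested probe, and its other probes are given where they differ. Of each list of related genes, at most 4 were named by rule: those called in most of the 5 stimulations, ties going to the largest mean change. Tspan33, Timp1 and Rhbdf1 were named outside this rule. The ADAM members and the lists were chosen with earlier results of these data known. Alternatives were median, quantile and normexp (offset 50) processing, the deposited log2 table, other filters on dim probes, the slide and the replicate number as a block, slide 1 alone, the mean of a gene's probes, the ordinary F test and leaving out each array. Likeness used probes well above background on all 12 arrays. Promoters are from RefSeq tables (GRCm38.p6), which matched 5 of the 7 members; the isotype control was not analysed here. Some marker genes are not reported here.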

Additional observations from a re-analysis of the deposited data

How the results depend on the processing

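The number of member probes called moved with the processing. Median scaling left 0 with anti-CD86, TLR2.CD86, anti-CD40, anti-CD40 with Pam2CSK4, anti-CD40 added to Pam2CSK4 and over the 6 conditions; the cause was not tested. With no filter on dim probes the counts were 0 with anti-CD86, 0 with TLR2.CD86, 1 with anti-CD40, 0 for anti-CD40 added to Pam2CSK4 and 1 over the 6 conditions. The deposited log2 table and slide 1 alone gave 0 with anti-CD86, and slide 1 alone gave 1 for anti-CD40 added to Pam2CSK4. A slide block gave other counts: 2 with Pam2CSK4, 4 with anti-CD86, 6 with TLR2.CD86, 5 with anti-CD40 and Pam2CSK4, 1 for anti-CD86 added to Pam2CSK4, 4 for anti-CD40 added to Pam2CSK4, 1 for Pam2CSK4 added to anti-CD40, 2 for anti-CD40 against anti-CD86 with Pam2CSK4, and 5 over the 6 conditions. Leaving out 1 array at a time gave 0 to 0 with anti-CD86, 0 to 1 with TLR2.CD86, 0 to 2 with anti-CD40, 0 to 1 for anti-CD40 added to Pam2CSK4 and 1 to 3 over the 6 conditions. Over all tested probes the calls in the 5 stimulations (46, 686, 3409, 5324 and 5763 in the order Pam2CSK4, anti-CD86, TLR2.CD86, anti-CD40, anti-CD40 with Pam2CSK4) became 3510, 8991, 11084, 11777 and 14996 with a slide block, 96, 68, 132, 348 and 464 under median scaling, 8, 0, 26, 1112 and 2486 with no filter, 0, 4, 6379, 7270 and 12714 on slide 1, and 245, 3967, 7787, 9427 and 8544 with the replicate number as a block.

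Same-numbered arrays deviated together with r of 0.54 to 0.67 among the 4 conditions with an array on slide 2. There, replicate number and slide cannot be told apart. In the other pairs of conditions r was -0.11 to 0.07, so no pairing by replicate number was seen in those. With the replicate number as a block the member counts were 3 with anti-CD86, 6 with TLR2.CD86, 2 for anti-CD40 against anti-CD86 with Pam2CSK4 and 4 over the 6 conditions, and the other counts moved by less than 1.5 times.

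Small values changed sign. Adam9 with anti-CD40 was 0.079 under quantile normalization, 0.13 with a slide block and 0.16 on slide 1 (-0.23 to 0.16 when single arrays were left out), and with anti-CD40 and Pam2CSK4 it was -0.076 under median scaling (-0.087 to 0.15). Adam28 with Pam2CSK4 was -0.052 under median scaling, -0.084 with a slide block and -0.31 on slide 1 (-0.31 to 0.60), and with anti-CD40 and Pam2CSK4 -0.012 under median scaling (-0.070 to 0.26). Adam19 with Pam2CSK4 was -0.014 under median scaling, and the mean of its probes was -0.028 with TLR2.CD86 and -0.0065 with anti-CD40 and Pam2CSK4. The Adam17 interaction with anti-CD40 was 0.59 under median scaling (-0.19 to 0.059 when single arrays were left out), that with anti-CD86 ran from -0.45 to 0.039, and TLR2.CD86 against anti-CD86 from -0.033 to 0.45. The cause was not tested. Adam17 with anti-CD40 and Pam2CSK4 kept its direction throughout (1.02 to 1.26) and lost its call under median scaling alone (adjusted p = 0.474).

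With 2 arrays per condition the precision is limited, and Adam15, Adam10, Adam8 and Adam9 each rest on 1 tested probe.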
